A study of Mus musculus with 8 samples.

Results

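The genes described here are Hox genes and other transcription factors of families that pattern the skeleton and the body axis, measured in cultured mesenchymal stem cells (MSC) of the mouse bone marrow. They were chosen by family name among the genes named on the array, which gave 74 of 8102 named genes, read by 88 probes. They comprised 16 Hox, 13 Fox, 9 Sox, 7 Tbx, 7 Nkx, 6 Lhx, 4 Tfap2, 3 Pbx, 3 Runx, 2 Pitx and 1 Prrx gene, and 3 of the sine oculis homeobox family. No gene of the Dlx, Msx, Meis or Twist families was among those named. Because families were taken whole, the members include genes best known outside the skeleton, such as Foxp3 of regulatory T cells and Nkx2-1 of lung and thyroid, and one noncoding RNA gene, Sox2ot.

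MSC are adherent stromal cells that can form bone, fat and cartilage. There were 4 cultures from NOD mice, a strain that develops autoimmune diabetes, taken while blood glucose was normal, and 4 from BALB/c mice of matched age. All were read at passage 4, and none is labelled as treated. Per the series text, marrow of the hind leg bones (femurs, tibiae) was pooled from 5 or more mice, whereas each title names a single mouse. Whether the cultures were started from separate pools is not stated, so p-values measure the spread between these cultures, which may in part be technical. The comparison of interest was NOD against BALB/c, the reference.

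Hox genes lie in clusters, and the order of genes along a cluster matches the order in which they act along the body axis and the limb. Adult stromal cells from different body sites keep a part of this Hox pattern in culture. Pbx proteins bind DNA together with Hox proteins, Prrx1 marks limb and bone marrow stroma, and Runx, Sox and Fox factors act later in the choice between bone, cartilage and other fates.

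The 250 bases before the annotated start are shown for 6 of the called members, to put the 4 called Hox genes beside Prrx1 and Tbx18. They are from RefSeq (GRCm38.p6), read 5′ to 3′ on the strand of the gene, and capitals mark CpG dinucleotides.
Hoxd4 (chr2:74721728-74721977, plus strand): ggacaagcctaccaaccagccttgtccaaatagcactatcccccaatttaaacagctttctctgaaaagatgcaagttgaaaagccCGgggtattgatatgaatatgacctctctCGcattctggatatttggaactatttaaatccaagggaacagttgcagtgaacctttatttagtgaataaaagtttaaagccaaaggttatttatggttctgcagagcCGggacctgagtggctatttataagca
Hoxd8 (chr2:74704365-74704614, plus strand): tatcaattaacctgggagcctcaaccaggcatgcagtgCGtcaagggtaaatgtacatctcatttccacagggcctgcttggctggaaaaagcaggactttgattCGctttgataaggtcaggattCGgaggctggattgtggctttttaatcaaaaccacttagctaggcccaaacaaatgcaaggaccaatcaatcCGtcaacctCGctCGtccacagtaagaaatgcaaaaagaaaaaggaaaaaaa
Hoxa7 (chr6:52218574-52218823, minus strand): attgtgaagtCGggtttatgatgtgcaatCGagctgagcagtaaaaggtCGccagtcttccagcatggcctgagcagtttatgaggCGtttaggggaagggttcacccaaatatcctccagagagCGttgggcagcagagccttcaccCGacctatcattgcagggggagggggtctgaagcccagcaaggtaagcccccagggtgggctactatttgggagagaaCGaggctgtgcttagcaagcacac
Hoxa9 (chr6:52227371-52227620, minus strand): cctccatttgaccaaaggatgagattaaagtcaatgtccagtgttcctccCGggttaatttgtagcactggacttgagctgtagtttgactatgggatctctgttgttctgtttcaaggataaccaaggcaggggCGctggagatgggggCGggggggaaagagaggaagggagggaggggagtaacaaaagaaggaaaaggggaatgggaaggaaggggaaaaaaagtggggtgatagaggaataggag
Prrx1 (chr1:163313651-163313900, minus strand): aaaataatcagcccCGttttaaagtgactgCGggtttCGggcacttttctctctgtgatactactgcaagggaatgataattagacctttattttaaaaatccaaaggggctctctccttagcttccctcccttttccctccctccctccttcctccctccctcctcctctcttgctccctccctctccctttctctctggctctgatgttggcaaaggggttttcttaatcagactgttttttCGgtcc
Tbx18 (chr9:87731261-87731510, minus strand): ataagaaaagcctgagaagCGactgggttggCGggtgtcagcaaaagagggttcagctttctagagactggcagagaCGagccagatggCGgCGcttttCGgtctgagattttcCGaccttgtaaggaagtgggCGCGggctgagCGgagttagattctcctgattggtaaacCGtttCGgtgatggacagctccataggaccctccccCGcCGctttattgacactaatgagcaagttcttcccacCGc

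Tbx18 held 15 CpG in its window and Hoxa9 and Hoxd4 held 3 each, where the median was 6 over all 32851 windows of the table and 10 over the 73 windows of 54 members. Hoxd4 carried TATAAA on the opposite strand, beginning 10 bases before the start, and none of the other 5 printed windows did. On both strands, TATAAA occurred in 12.4% of all windows and in 7 of the 73 member windows (9.59%). TGATNNAT, a pattern bound by Hox and Pbx proteins together, occurred in 7.68% of all windows and in 5 member windows (6.85%). It was in none of the 6 printed windows. The 2 patterns were searched independently and may share end bases.

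Before normalization, the raw level differed by strain. By culture number, the median signal intensity was 58.2, 74.9, 61.0 and 56.5 for BALB/c, against 75.8, 74.8, 78.6 and 68.7 for NOD. Only the BALB/c array of culture 2 thus lay within the NOD range, and the cause was not tested. Between 36.1% and 39.3% of probes were detected (detection p under 0.05 against the negative controls of the array). Of 16 stromal marker genes 7 were named on the array, and 6 of these, Prrx1, Eng, Vcam1, Col1a1, Col1a2 and Col3a1, were detected in all 8 cultures, while Cxcl12 was detected in none. Of 7 leukocyte markers on the array, Cd68 was detected in all 4 BALB/c cultures and no NOD culture, Lyz2 in 3 BALB/c and 2 NOD cultures and Csf1r in 1 BALB/c culture, and Ptprc, Itgam, Cd52 and Cd3e in none. Correlation between arrays over tested probes was 0.842 to 0.983 within BALB/c, 0.927 to 0.985 within NOD and 0.811 to 0.906 between strains. In such bulk RNA, fewer cells that express a gene and less RNA of it per cell cannot be told apart.

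Many members were not detected by these arrays. Of the 74 members 36 were detected on no array, 13 on all 8, and 11 on at least 1 but fewer than 4. The 27 members detected on 4 or more arrays were tested, or 36.5% of them, against 52.1% of all named genes. Each culture detected 23 to 28 members, judged by the probe that stands for each gene. In the order of their numbers the BALB/c cultures detected 24, 23, 27 and 28 and the NOD cultures 24, 28, 25 and 24, so the strains overlapped in this number.

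The families differed in how many members were read. All 3 Pbx genes and both Hoxc genes were detected on at least 1 array, whereas 5 of 6 Lhx and 6 of 7 Nkx genes, which pattern the nervous system and internal organs, were detected on none. Lhx9 was detected in NOD culture 3 alone, and Nkx6-2 in BALB/c culture 4 alone. Among the T-box genes, Tbx4 and Tbx5, which mark hindlimb and forelimb, and Tbx1, Tbx15 and Tbx22 were below detection throughout. Of the Hox genes of paralogue groups 11 to 13, which pattern the distal limb, Hoxa13, Hoxd11, Hoxd12 and Hoxd13 were detected on no array. Hoxb13, also of this range, was detected in BALB/c cultures 3 and 4. Runx2, the master regulator of bone formation, had 2 probes, and its only detection was in BALB/c culture 1. A probe that is not detected says that the signal was within the background, not that the RNA was absent.

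**Figure D1:**
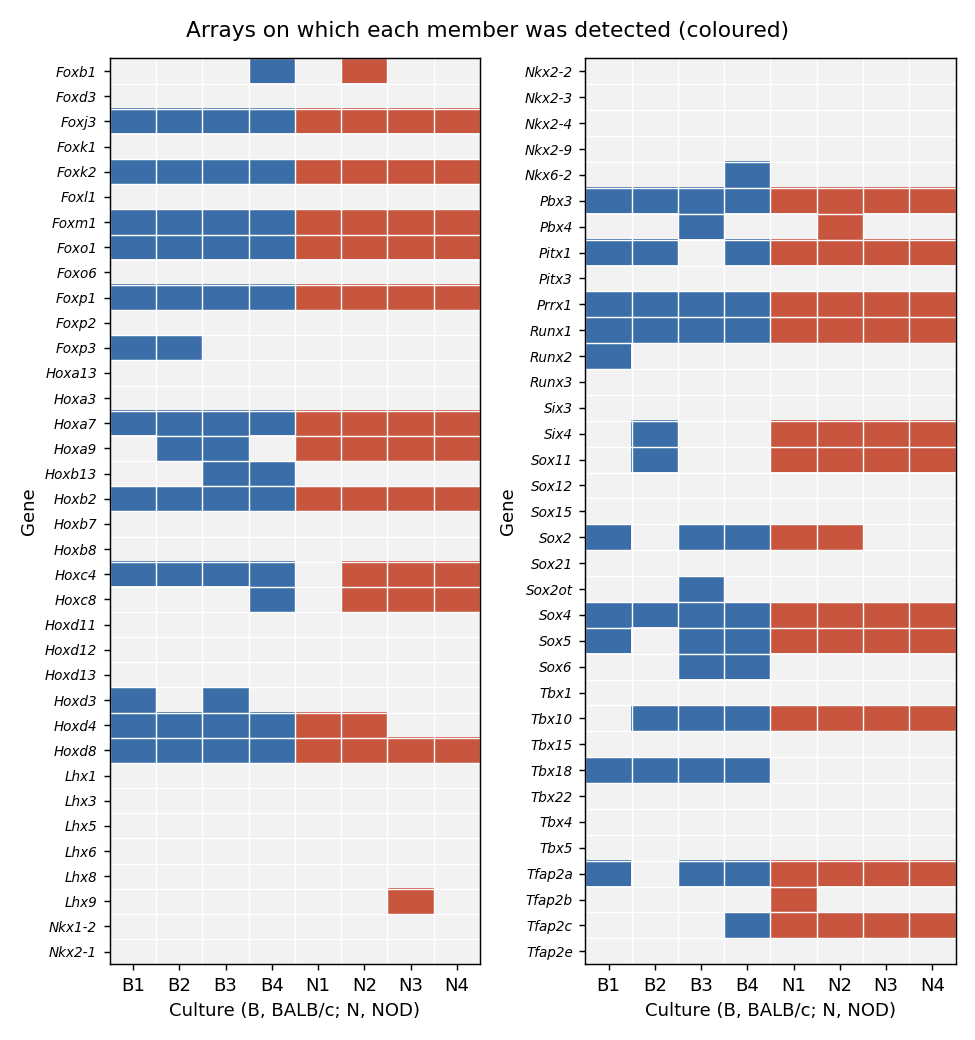
Detection of 71 members in each culture. Rows are genes, and columns are the 4 BALB/c cultures (B1 to B4, blue) and the 4 NOD cultures (N1 to N4, red). A coloured cell marks a detection p under 0.05 for the probe that stands for the gene. The 35 empty rows are members detected on no array, and Tbx18 is coloured in BALB/c only.

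Of the 27 tested members, 10 differed between strains by limma at an adjusted p under 0.05, 37.0% of those tested, against 9.1% of the 4220 named genes tested and 8.51% of all tested probes. Tfap2c, Hoxa9, Runx1, Foxo1 and Prrx1 were higher in NOD, and those lower included Hoxd4, Tbx18, Hoxa7 and Hoxd8. This is 5 members in each direction, where 4.15% of named genes were higher and 4.95% lower. With arrays scaled by their medians, which put the median of all probes at 0.15 in favour of NOD, the split was 7 higher and 4 lower. A member that passed the filter only through the strain where it is bright was favoured to differ by that selection. Tbx18 was the 1 tested member with all detections in 1 strain. Tfap2c, Six4 and Sox11, with 1 BALB/c detection each, likewise passed through their 4 NOD detections. Hoxa9 in BALB/c and Hoxd4 in NOD, the strains where they are low, were detected in 2 cultures, fewer than the filter's 4. In all, 14 of the 27 were detected on fewer than 8 arrays. When only probes detected on all 8 arrays were fitted, 3 of 13 members were called (Foxo1, Prrx1 and Hoxd8), against 6.17% of named genes. The median difference of the 27 members was 0.21 on the log2 scale, and their median absolute difference was 1.17. Over all tested named genes the median was -0.02 and the median absolute difference 0.39. The strains did not overlap for 11 of the 27 members, the 10 called among them, compared with 18.9% of named genes.

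**Figure D2:**
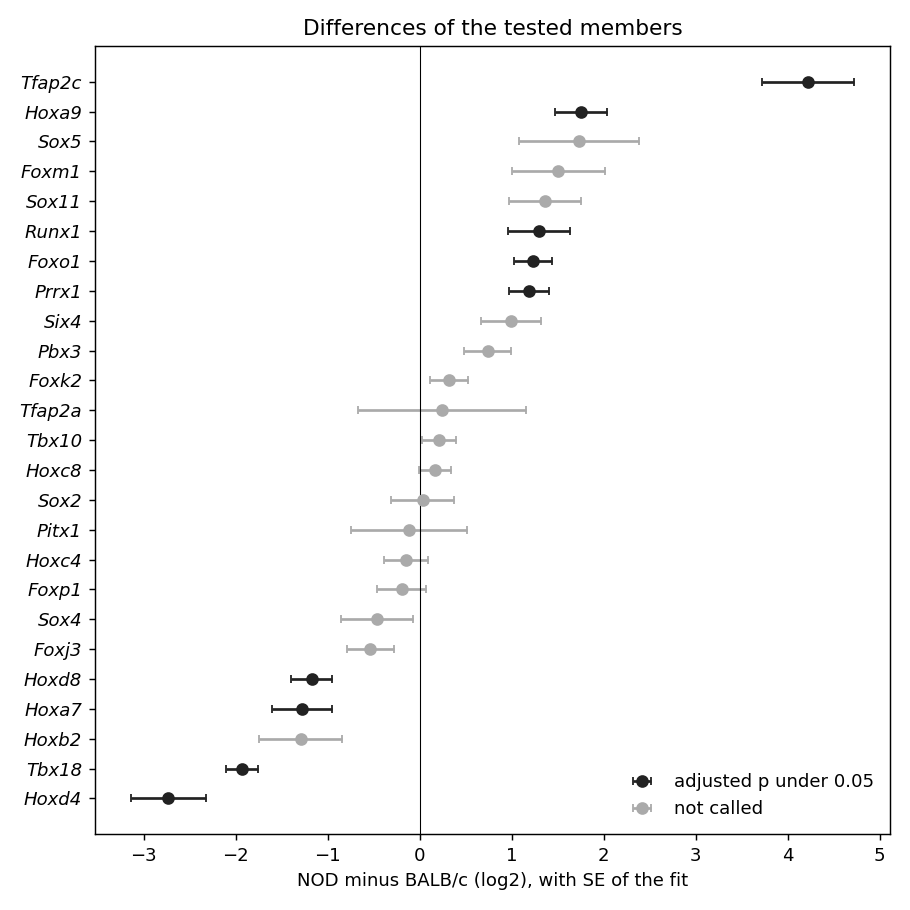
Difference in log2 intensity, NOD minus BALB/c, of 25 tested members, sorted by size. Points are fitted differences, bars are standard errors of the fit, black marks an adjusted p under 0.05 and grey the rest. Tfap2c stands at 4.22 and Hoxd4 at -2.73, and the grey Sox5 and Tfap2a carry wide bars.

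Among the Hox genes, 3 of 7 tested members were called lower in NOD, 1 was called higher and 3 were not called, with a median difference of -1.17. Over all tested named genes 4.95% were called lower and 4.15% higher, with a median of -0.02. Hoxd4, a gene of the anterior part of the HoxD cluster that acts in the neck region, had normalized log2 intensities, given here and below in the order of culture numbers, of 8.58, 7.93, 9.39 and 7.95 in BALB/c. In NOD it read 5.79, 6.52, 5.06 and 5.55. Every BALB/c culture lay above every NOD culture, and only NOD cultures 1 and 2 detected it. The means were 8.46 ± 0.69 and 5.73 ± 0.61 (SD, n = 4 each), and the difference was -2.73 ± 0.41 (SE, limma adjusted p = 0.00466), or 6.63-fold. With the detection p-values used as deposited the difference was -0.78 and not called (limma adjusted p = 0.0955).

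Hoxd8, a second gene of the same cluster and active in the trunk, was lower by less. It read 9.22, 9.60, 9.40 and 9.55 in BALB/c and 8.45, 8.56, 7.76 and 8.31 in NOD. The strains did not overlap, and all 8 cultures detected it. The difference was -1.17 ± 0.22 (SE, limma adjusted p = 0.0146), or 2.26-fold, and it was no longer called without BALB/c culture 4 (limma adjusted p = 0.0508) or without NOD culture 4 (0.0574). Hoxd3, the neighbour of Hoxd4 in the cluster, was too dim to test and was detected in BALB/c cultures 1 and 3 alone. Its signal before normalization was 71.7, 84.3, 149.8 and 47.0 in BALB/c and 45.2, 58.4, 39.7 and 44.7 in NOD. BALB/c culture 3 was the highest of the 8 and no NOD culture detected the gene.

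In the HoxA cluster, 2 genes moved in opposite directions. Hoxa9, a gene of the posterior trunk and proximal limb that also acts in blood progenitors, read 5.27, 5.71, 6.26 and 5.23 in BALB/c and 7.07, 7.72, 7.08 and 7.62 in NOD. BALB/c cultures 1 and 4 did not detect it, and all NOD cultures did and lay higher. The difference was 1.75 ± 0.29 (SE, limma adjusted p = 0.00751), or 3.37-fold. With the deposited detection p-values it was 0.27 and still called (0.0383). Hoxa7, which lies in the same cluster and patterns the trunk, read 10.08, 9.81, 10.18 and 10.20 in BALB/c and 8.64, 9.68, 8.06 and 8.78 in NOD. NOD culture 2 came within reach of the lowest BALB/c culture without passing it. The difference was -1.28 ± 0.32 (SE, limma adjusted p = 0.0460), or 2.42-fold, and the call was lost when any culture other than BALB/c 2 or NOD 2 was left out, with adjusted p between 0.0597 and 0.133.

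The remaining Hox genes did not pass the test. Hoxb2, which patterns the hindbrain and anterior trunk, read 8.25, 7.00, 9.34 and 8.62 in BALB/c and 7.18, 7.26, 6.55 and 7.06 in NOD. Only BALB/c culture 2 fell within the NOD range. The difference was -1.29 ± 0.45 (SE, limma adjusted p = 0.116), -1.73 without BALB/c culture 2 (0.00887) and -0.95 without BALB/c culture 3 (0.156). Hoxc4 and Hoxc8, of the neck and the trunk, were dim in both strains, with differences of -0.15 (limma adjusted p = 0.731) and 0.17 (0.585).

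Pbx3, of a family whose proteins are partners of Hox proteins, lay higher in NOD on average without passing the test. It read 7.05, 6.54, 6.71 and 7.38 in BALB/c and 7.17, 7.85, 7.86 and 7.76 in NOD. NOD culture 1 lay within the BALB/c range and the other NOD cultures above it. The difference was 0.74 ± 0.25 (SE, limma adjusted p = 0.112), and 0.93 with median scaling (0.0495).

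Prrx1, a homeobox gene of limb bud and stromal cells with roles in the limb and facial skeleton, was detected in every culture. It read 10.17, 10.08, 9.56 and 10.22 in BALB/c and 11.05, 11.54, 11.04 and 11.18 in NOD. All NOD cultures lay above all BALB/c cultures, with a spread of 0.30 (SD) in BALB/c and 0.23 in NOD. The difference was 1.19 ± 0.22 (SE, limma adjusted p = 0.0129), or 2.28-fold, and a second Prrx1 probe gave 1.36 (0.00753). Without NOD culture 4 the first probe was no longer called (limma adjusted p = 0.0536). Pitx1, a hindlimb homeobox gene, had a difference of -0.12 ± 0.63, with BALB/c culture 3 at 5.06 and undetected while the other BALB/c cultures lay between 6.85 and 7.89. Six4, which acts in muscle and kidney development, was detected in all NOD cultures and in BALB/c culture 2 alone. It read 5.37, 6.53, 5.19 and 5.29 in BALB/c and 6.50, 6.89, 6.24 and 6.72 in NOD. Its difference was 0.99 ± 0.32 (SE, limma adjusted p = 0.0959), 1.30 without BALB/c culture 2 (0.00625) and 0.86 without BALB/c culture 3 (0.135).

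Tbx18, a T-box gene known from the borders of somites, the heart's epicardium and perivascular cells, was detected in one strain only. It read 6.99, 6.83, 7.13 and 6.72 in BALB/c and 5.11, 4.98, 4.94 and 4.92 in NOD. All BALB/c cultures detected it and no NOD culture did, and the NOD values lay at background. It thus passed the filter only through the strain where it is high, so its p is a description and not independent of that selection. The difference was -1.93 ± 0.17 (SE, limma adjusted p = 0.000255). Set against the lowest value of a detected probe on the NOD arrays, BALB/c was at least 2.72-fold higher with the processing used here. This bound depends on the background correction and offset, and with an offset of 50 the difference itself was -1.24. The call held in the 21 alternatives in which Tbx18 was tested, although with the deposited detection p-values the difference was -0.23 (0.0131). It was not tested where probes had to be detected on all 8 arrays. Tbx10, the only other T-box gene tested, differed by 0.21 ± 0.19 (limma adjusted p = 0.525).

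Runx1, a regulator of blood formation that is also present in early skeletal cells, read 6.86, 7.95, 7.01 and 7.41 in BALB/c and 8.45, 8.14, 9.36 and 8.47 in NOD. The strains did not overlap, with BALB/c culture 2 close to NOD culture 2. The difference was 1.30 ± 0.33 (SE, limma adjusted p = 0.0472), or 2.46-fold. The call was lost when any culture other than BALB/c 2 was left out, with adjusted p between 0.0576 and 0.134, and the difference was 0.58 with the deposited detection p-values (0.138). Runx3 was detected on no array.

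Of the 4 tested Sox genes, which include regulators of cartilage and of progenitor cells, none passed the test. Sox5, a partner of Sox9 in cartilage, read 7.78, 5.48, 9.10 and 7.60 in BALB/c and 8.94, 9.60, 9.00 and 9.34 in NOD. The NOD cultures lay close together, whereas BALB/c culture 3 reached the NOD range and in BALB/c culture 2 this probe was not detected. The difference was 1.73 ± 0.65 (SE, limma adjusted p = 0.139), 2.27 without BALB/c culture 3 (0.0297) and 1.06 without BALB/c culture 2 (0.0804). A second Sox5 probe gave 0.94 (0.106). Sox6, which acts with Sox5, was detected by its brighter probe in BALB/c cultures 3 and 4 alone. Sox11, a factor of progenitor and neural cells, read 5.00, 6.21, 5.42 and 5.15 in BALB/c and 7.25, 5.80, 7.28 and 6.91 in NOD. It was detected in all NOD cultures and in BALB/c culture 2 alone, and NOD culture 2 lay below BALB/c culture 2. The difference was 1.36 ± 0.39 (SE, limma adjusted p = 0.0688), 1.62 without BALB/c culture 2 (0.0216), 1.69 without NOD culture 2 (0.0259) and 1.20 without NOD culture 3 (0.175). Sox4, of progenitor and bone-forming cells, differed by -0.46 ± 0.40 (0.501), and Sox2, of pluripotent and neural cells, by 0.03 ± 0.34 (0.964).

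Among the Fox genes, forkhead factors with many roles in growth and differentiation, Foxo1 was higher in NOD. Foxo1, which restrains proliferation, responds to insulin signalling and acts in osteoblasts, read 7.68, 8.10, 8.03 and 7.97 in BALB/c and 9.06, 8.88, 9.55 and 9.21 in NOD. Both strains were tight and did not overlap. The difference was 1.23 ± 0.21 (SE, limma adjusted p = 0.00817), or 2.35-fold.

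Foxm1, which drives entry into mitosis, read 6.20, 6.98, 8.40 and 5.96 in BALB/c and 7.87, 8.53, 8.73 and 8.45 in NOD. BALB/c culture 3 lay within the NOD range and the other BALB/c cultures below it. The difference was 1.51 ± 0.50 (SE, limma adjusted p = 0.102), 2.01 without BALB/c culture 3 (0.00551) and 1.20 without BALB/c culture 4 (0.244). A second Foxm1 probe was detected on no array. Foxj3, with a role in muscle and sperm cells, differed by -0.54 ± 0.25 (0.225), by -0.77 without BALB/c culture 2 (0.0223) and by -0.40 without BALB/c culture 1 (0.473). A second tested Foxj3 probe gave 0.10 ± 0.28 (0.854). The probes of Foxk2, a metabolic regulator, disagreed. The brighter gave 0.32 ± 0.21 (limma adjusted p = 0.364) and the other 0.99 ± 0.23 (0.0342). Foxp1, of lung and lymphoid development, differed by -0.20 ± 0.27 (0.689).

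Tfap2c, an AP-2 factor of neural crest, skin and germ cells, showed the largest difference of the tested members. It read 5.07, 5.30, 4.95 and 5.80 in BALB/c and 8.25, 9.05, 10.83 and 9.87 in NOD. BALB/c culture 4 alone among the BALB/c cultures detected it, and the NOD cultures, all higher, were spread more widely than the BALB/c cultures. The means were 5.28 ± 0.37 and 9.50 ± 1.10 (SD, n = 4 each), and the difference was 4.22 ± 0.50 (SE, limma adjusted p = 0.00131), or 18.6-fold, part of which rests on BALB/c values at background. A second probe, detected in all NOD and no BALB/c culture, gave 1.63 ± 0.42 (0.0477) and passed the filter only through NOD. The first probe also owed its pass to its NOD detections, so neither p is independent of that selection. With the deposited detection p-values the first probe gave 1.76 and was not called (0.0911). Tfap2a, of neural crest and skin, read 8.43, 5.32, 10.23 and 8.72 in BALB/c and 9.05, 8.51, 7.42 and 8.66 in NOD. BALB/c culture 2 did not detect it and BALB/c culture 3 exceeded every NOD culture. The difference was 0.24 ± 0.91 (limma adjusted p = 0.897).

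**Figure D3:**
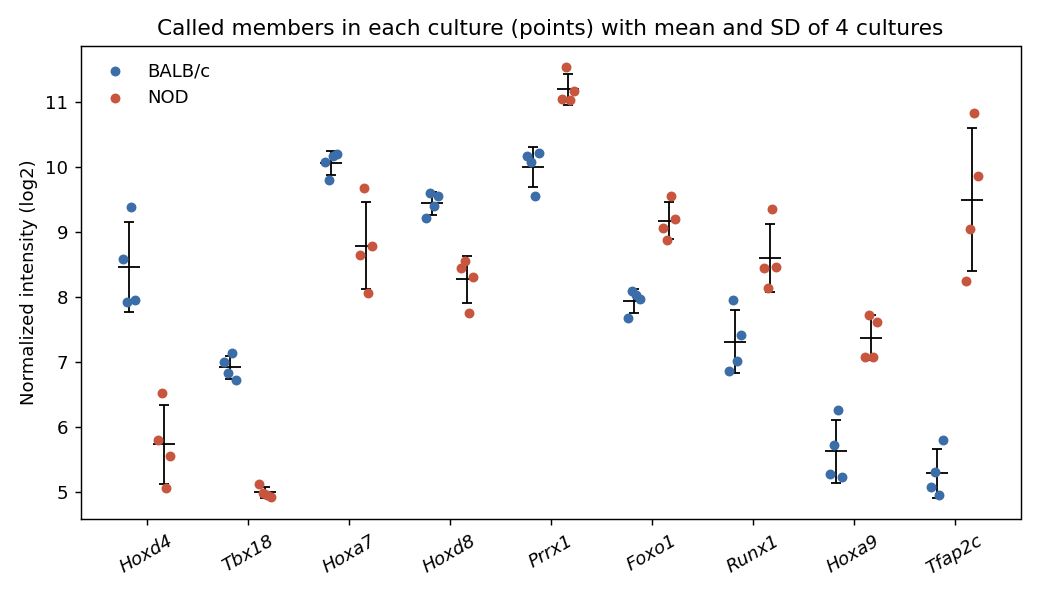
Log2 normalized intensity of 9 called members in each culture. Points are cultures (blue BALB/c, red NOD), and the lines give the mean and SD of 4 cultures. No red point overlaps a blue point of the same gene, and the NOD points of Tfap2c run from 8.25 to 10.83. Levels are not comparable between genes.

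Detection followed strain for 4 members, Tbx18 in BALB/c and Tfap2c, Six4 and Sox11 in NOD, which were detected in all 4 cultures of one strain and in at most 1 of the other. Over all named genes 1.57% showed such a pattern. The BALB/c cultures varied more than the NOD cultures for 17 of the 27 tested members, with median SDs of 0.48 and 0.35. Over all tested named genes the medians were 0.44 and 0.26, and BALB/c varied more for 3214 of 4220. Within BALB/c, culture 2 was the highest or lowest for 70.4% of the tested members and culture 3 for 59.3%, near the 65.3% and 57.4% over all named genes.

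The calls differed in how far they depended on single cultures. Tbx18, Tfap2c, Hoxd4, Hoxa9 and Foxo1 were called whichever culture was left out. Prrx1 lost its call without 1 of the 8 cultures, Hoxd8 without 2, Hoxa7 without 6 and Runx1 without 7.

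**Figure D4:**
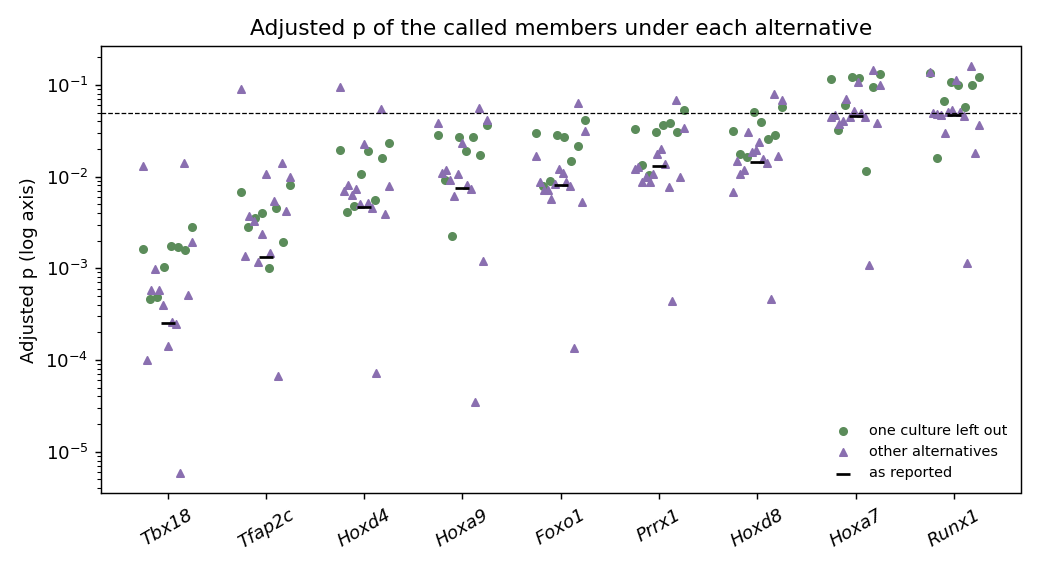
Adjusted p of 9 called members, on a log axis, as reported (black lines), with one culture left out (green circles) and under the other alternatives (purple triangles). The dashed line marks 0.05. Tbx18 stays under the line in the 21 alternatives that tested it, and every other member shown has points on both sides of it.

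Genes that regulate or read the same patterning programme were examined from listed groups, and the counts stand beside 4.15% of all tested named genes called higher in NOD, 4.95% called lower, and a median of -0.02. Of 9 tested Polycomb and trithorax genes, which keep Hox genes silent or active, none was called and none had an unadjusted p under 0.05 by limma, with a median difference of 0.10. Of 7 tested genes of retinoic acid, which switches Hox genes on in the embryo, none was called by limma, 2 had an unadjusted p under 0.05, and the median was -0.04. Of 12 other patterning factors tested, Irx2 was higher in NOD and Zeb2 lower, and the median was 0.22. Irx2, an Iroquois factor of limb and heart, was detected in all NOD and no BALB/c cultures. With the processing used here it was at least 1.45-fold higher (limma adjusted p = 0.00700). It passed the filter only through NOD, so its p is not independent of that selection. Zeb2, a repressor of epithelial genes, differed by -1.22 ± 0.32 (0.0487).

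Of 8 tested ligands and receptors of limb signalling, Wnt5a and Fgfr1 were called higher, against 4.15% of all tested named genes, and none lower, with a median of 0.93. That Wnt5a was higher in NOD was known from earlier results of these data when the list was drawn up. Wnt5a, a ligand that guides limb outgrowth, differed by 2.65 ± 0.26 (limma adjusted p = 0.00039), and Fgfr1, a receptor for fibroblast growth factors, by 2.08 ± 0.29 (0.00347). Of 6 named chondrocyte genes, 5 were detected on no array and none could be tested. None of 3 adipocyte genes tested was called, with a median of 0.14 and none with an unadjusted p under 0.05 by limma. Of 8 osteoblast genes tested, 5 were higher in NOD and none lower, with a median of 2.06, a direction known from earlier results of these data.

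Marker genes of stromal and other cells were set beside these differences, and their part in them was not tested. Of 6 tested stromal markers 3 were called higher in NOD and none lower, with a median of 0.97, against 4.15% and 4.95% of all tested named genes. Beside Prrx1, itself one of the members, these were Vcam1 at 1.14 (limma adjusted p = 0.00946) and Col1a2 at 1.22 (0.0470). Col1a2 was also counted among the osteoblast genes higher in NOD. Of the leukocyte markers 2 were tested and none was called by limma, 1 of them with an unadjusted p under 0.05. Cd68, a macrophage gene, differed by -2.08 ± 0.58 (limma adjusted p = 0.0615), and Lyz2 by -2.15 ± 1.28 (0.331). Cd68 passed the filter only through BALB/c, the strain where it is high, so its p is not independent of that selection. The 7 leukocyte markers averaged 5.16 to 6.52 per culture on the log2 scale in BALB/c and 5.00 to 5.51 in NOD, and 1 to 3 of them were detected per BALB/c culture and 0 to 1 per NOD culture. Without BALB/c cultures 2 and 4, which had the most Lyz2, a macrophage gene, 10 members were called, 8 of them the same. In that fit 8.34% of named genes were called. The 4 neural crest and Schwann markers, of which 3, Ngfr and Foxd3 among them, were detected nowhere, averaged 4.87 to 5.32 in BALB/c and 5.56 to 5.82 in NOD, where S100b was higher by 2.27 (limma adjusted p = 0.00771). Of 2 endothelial markers, Pecam1 and Emcn, none was detected. Of 2 erythroid markers, Hba-a1 was detected in 2 BALB/c cultures and Hbb-b1 in none.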

How the data were processed

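RNA of 8 cultures was read on single-colour Illumina arrays, 1 array each. The first deposited table held the mean bead signal intensity and detection p-value of 46628 probes, not normalized per the file headers. The detection p-value was deposited in steps that correspond to 1603 negative controls. The authors' second table held their normalized intensity on a linear scale, ranked as the raw signals were (Spearman correlation of 1 on all 8 arrays). For the array model, scanner software and normalization method, details were not given in the sources used here.

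Probe identifiers made of a zero-padded number were read as gene IDs and named through a RefSeq gene table (mouse, GRCm38.p6). This matched 81.1% of 9995 such numbers, against 11.3% of 16482 unpadded ones. As a test of the reading, 7 of 343 olfactory receptor probes and 72 of 79 ribosomal protein probes were detected on at least 4 arrays. Other probes stayed unnamed here.

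The software was R 4.3.3 and limma 3.58.1. Normexp background correction used the negative controls that detection p-values imply, with 16 added as offset, followed by log2 and quantile normalization. On each array 4 or 5 p-values above 0 but under 1 step were set to 0 first, a correction known from earlier work on these data. A further 374 control and numeric-accession probes were not tested. Probes detected (p under 0.05) on at least 4 of 8 arrays entered lmFit and eBayes, 17766 in all, with Benjamini-Hochberg adjustment over all of them. The brightest tested probe stood for a gene, or its brightest probe where none was tested, and an adjusted p under 0.05 was called. Levels are means ± SD of 4 cultures. The precision is limited by the number of arrays. The steps were tested on simulated data. Alternatives changed the background, offset, scaling, filter, probe choice, array weights and block, or left cultures out. The members and gene lists were chosen with earlier results of these data known. The genes named were those called, those detected on all arrays of one strain and at most 1 of the other, the 3 marker genes given for the group, the next 10 by adjusted p and the brightest other member of each family. A few genes that enter the counts are not reported here by name.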

Additional observations from a re-analysis of the deposited data

Results flagged for a closer look

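Among 54 groups of 4 cultures examined for the 27 tested members, 2 held a culture that stood apart from the others of its strain, by Dixon's criterion for 4 values. Chance flags about 1 in 20 groups. Pbx3 read 7.17 in NOD culture 1, while the other NOD cultures lay between 7.76 and 7.86. Six4 read 6.53 in BALB/c culture 2, while the other BALB/c cultures lay between 5.19 and 5.37, and it was the only BALB/c culture in which Six4 was detected.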

How the results depend on the processing

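Of the 10 called members, 6 remained when the deposited detection p-values were used unaltered, and 3 among the 13 tested when a probe had to be detected on all 8 arrays. Of all named genes tested, 8.34% and 6.17% were called in these 2 settings, against 9.1% in the main fit. With array quality weights 20 members were called, where 2205 of 4220 named genes were called too. Without BALB/c cultures 2 and 3 there were 16, where 1496 of 4220 named genes were called. Leaving out 1 culture at a time gave 6 members (without NOD culture 4) to 14 (without BALB/c culture 2). In these 2 fits 3.98% and 20.2% of named genes were called, so the number of members called moved with that of all genes. Same-numbered cultures of the 2 strains did not deviate together (correlations of -0.33, -0.64, -0.05 and 0.08, and 0 of 8 arrays were closest to their own number). No pairing by number was seen, but with 4 cultures of each strain these values cannot exclude that same-numbered cultures were handled together. With the number as a replicate block 3 members were called, and 3.03% of named genes. Foxo1, Hoxa7, Hoxa9, Hoxd4, Hoxd8, Prrx1 and Runx1 lost their calls there. The other settings gave 8 to 11, with 3.95% (no filter on dim probes) to 10.4% (no background correction) of named genes called. The sign of 4 uncalled members turned in some settings, and the cause was not tested. Tfap2a was -0.25 with the deposited p-values, -0.16 without BALB/c cultures 2 and 3, -0.91 without 2 and 4, and -0.71 to 0.92 leaving out 1 culture. Pitx1 was 0.0073 with a robust background, 0.068 with median scaling, 0.29 without 2 and 4, and -0.72 to 0.23 leaving out 1. Sox2 was -0.12 with array weights, -0.0903 without 2 and 3, -0.33 without 2 and 4, and -0.22 to 0.24 leaving out 1. Hoxc4 was 0.013 with median scaling. The alternative without BALB/c cultures 2 and 4 was chosen after seeing the data. Signals near background limit the dim members, and a difference below detection could not be seen.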
